A study of Mus musculus with 17 samples.

Results

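The 7 genes described here encode inhibitory receptors of T cells: Pdcd1 (PD-1), Ctla4, Lag3, Havcr2 (TIM-3), Tigit, Cd160 and Btla. They were taken by name, and all 7 were present among the 28208 genes common to 5 mouse single-cell RNA-seq libraries and among the 48397 genes of 12 mouse bulk RNA-seq libraries. The single-cell libraries held leukocytes from pancreatic tumours 3 weeks after cells were implanted into the pancreas. There was 1 library per genotype: PDL1 floxed/floxed-CD4Cre, PDL1 floxed/WT-CD4Cre, PDL1 floxed/floxed without Cre, WT, and CD4Cre without a floxed allele. The Cre is driven by the Cd4 promoter and therefore acts in the T cell lineage, which limits what the deletion can model to T cells and their descendants. The bulk libraries were titled PD1_Fc, Ctrl_Fc, PDL1_Fc and Control, with n = 3 each, and, per their labels, hold T cells of WT spleens activated with antibodies to CD3 and CD28. Nothing in the labels says that the bulk replicates came from separate animals or cultures, so p-values measure the spread between these samples, which may be technical.

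Inhibitory receptors are placed on the T cell surface after antigen stimulation and damp signalling from the antigen receptor and from CD28. PD-1 binds PD-L1 and PD-L2, CTLA-4 competes with CD28 for CD80 and CD86, LAG-3 binds MHC class II and FGL1, and TIM-3 binds galectin-9 and CEACAM1. TIGIT competes with CD226 for PVR and nectin-2, and BTLA and CD160 bind HVEM, the product of Tnfrsf14. Several of them are held at high levels together in T cells that meet antigen persistently in tumours, a state called exhaustion, while CTLA-4 is constitutive in regulatory T cells.

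The sequences before the RefSeq start of Pdcd1, Ctla4 and Havcr2 are shown because Pdcd1 and Ctla4 differed in opposite directions between regulatory T and CD8 cells below and Havcr2 was called between CD8 and CD4 cells. They are RefSeq promoter windows on build GRCm38.p6, the 250 bases before the annotated start, written 5′ to 3′ on the gene's strand. Pdcd1 lies at chr1:94052554-94052803 on the minus strand, Ctla4 at chr1:60908775-60909024 on the plus strand and Havcr2 at chr11:46454681-46454930 on the plus strand. The annotations differ for Ctla4: its window lies inside the GENCODE gene range printed below, which starts farther upstream. Capitals mark matches, on either strand, to GGAAA, the core letters bound by NFAT factors, or to TGANTCA, letters bound by AP-1 factors.
Pdcd1: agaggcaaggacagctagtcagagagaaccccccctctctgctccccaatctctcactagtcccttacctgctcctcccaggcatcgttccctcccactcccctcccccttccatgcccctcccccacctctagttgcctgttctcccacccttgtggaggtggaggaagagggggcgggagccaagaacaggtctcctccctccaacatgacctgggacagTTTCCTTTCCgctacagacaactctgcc
Ctla4: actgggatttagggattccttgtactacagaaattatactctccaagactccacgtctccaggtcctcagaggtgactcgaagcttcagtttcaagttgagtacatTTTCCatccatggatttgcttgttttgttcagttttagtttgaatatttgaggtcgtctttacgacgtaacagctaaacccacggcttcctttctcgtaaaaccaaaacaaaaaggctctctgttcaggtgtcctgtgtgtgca
Havcr2: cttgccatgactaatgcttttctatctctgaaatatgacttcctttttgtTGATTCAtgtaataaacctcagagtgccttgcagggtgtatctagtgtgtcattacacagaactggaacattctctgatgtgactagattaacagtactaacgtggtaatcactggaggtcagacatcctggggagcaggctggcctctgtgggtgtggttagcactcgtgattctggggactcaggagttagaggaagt
Pdcd1 held 2 matches to GGAAA and none to TGANTCA, Ctla4 held 1 match to GGAAA, and Havcr2 held 1 match to TGANTCA and none to GGAAA. No match to either motif overlapped another. Of 32851 promoter windows of this length, 55.6% held GGAAA and 6.75% held TGANTCA, so a match is a description of the letters only. A window was given for 6 of the 7 genes.

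Cells were put into classes by marker UMIs (unique molecular identifiers, counted molecules): 5099 myeloid, 59 NK, 54 regulatory T, 826 CD8 and 105 CD4 cells in all. The regulatory T class required a Foxp3 UMI and the CD4 class required Cd4 with no Foxp3 UMI. Most cells in classes were myeloid although the labels speak of tumour-infiltrating T cells; the design text speaks of sorted CD45+ leukocytes. The T cell classes were small: a library held 3 to 25 NK cells, 4 to 14 regulatory T cells and 13 to 31 CD4 cells. There were 18 CD8 cells in floxed/floxed-CD4Cre, 36 in floxed/WT-CD4Cre, 449 in floxed/floxed, 289 in WT and 34 in CD4Cre. Levels below are CPM, a gene's UMIs scaled to all UMIs of its class in 1 library, and intervals are 95% and cover counting error only.

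The libraries fell into 2 sets that bear on every comparison of genotypes. The floxed/floxed and WT libraries used another gene table than the 3 libraries with Cre, so Cre and library set cannot be told apart. The 3 Cre libraries also shared cell barcodes, with 1709 between floxed/floxed-CD4Cre and floxed/WT-CD4Cre, 1304 between floxed/floxed-CD4Cre and CD4Cre, and 1576 between floxed/WT-CD4Cre and CD4Cre, against 12 between floxed/floxed and WT. For these 3 pairs the same barcode carried a median of between 30.4 and 39.96 times more UMIs in the richer library. Some values below are given also without these cells, but values given once include them and can change. Without them Cd160 in NK cells of floxed/floxed-CD4Cre went from 71.6 to 156.9 CPM. Pdcd1 in CD8 cells of CD4Cre went from 339.9 to 418 CPM. The shared cells were 416 myeloid cells in floxed/floxed-CD4Cre, 243 in floxed/WT-CD4Cre and 164 in CD4Cre, and 0 to 5 per library in any T or NK class. They were rich in UMIs, so that few cells carried much of a class: in regulatory T cells, 1 cell held 55.7% of UMIs in floxed/floxed-CD4Cre, 1 cell held 36.6% in floxed/WT-CD4Cre and 2 cells held 49.8% in CD4Cre. In CD8 cells the shared cells held 0% of UMIs in floxed/floxed-CD4Cre, 21.3% in floxed/WT-CD4Cre and 33.9% in CD4Cre. Deposited names of the floxed/WT-CD4Cre and WT matrices disagreed with the labels, and the labels were followed. The targeted gene, Cd274 (PD-L1), was at 24.2 in the floxed/floxed-CD4Cre library, 12.05 in floxed/WT-CD4Cre, 11.8 in floxed/floxed, 5.91 in WT and 53.1 CPM in CD4Cre in CD8 cells. The deleted part of the gene is not given in the sources used here, so these UMIs do not check the genotype labels.

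Marker genes not used for the gates were compared between classes. The 5 T cell genes summed to 2.49 to 45.6 CPM in myeloid cells, against 1462 to 3626 CPM in regulatory T cells, 2627 to 3984 CPM in CD8 cells and 2732 to 4752 CPM in CD4 cells, with all 5 detected. They summed to 487 to 1246 CPM in NK cells, and the part of T cells in the NK class was not tested. The 3 CD8 cell genes had a median sum of 9687 CPM in CD8 and 9893 CPM in NK cells, and so did not separate these classes. The 4 NK cell genes summed to 2669 to 12152 CPM in NK cells, against 290 to 1459 CPM in CD8 cells. The 4 regulatory T cell genes summed to 1352 to 3389 CPM in the regulatory T class, against 443 to 894 CPM in the CD4 class, so the CD4 class may hold regulatory T cells without a Foxp3 UMI. The 7 macrophage genes, all detected in every class, summed to 21648 to 73130 CPM in myeloid cells, against 467 to 2706 CPM in regulatory T cells, 327 to 3423 CPM in CD8 cells and 536 to 3932 CPM in CD4 cells. Their part in the T cell values was not tested, except where a level below bears on it.

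**Figure D1:**
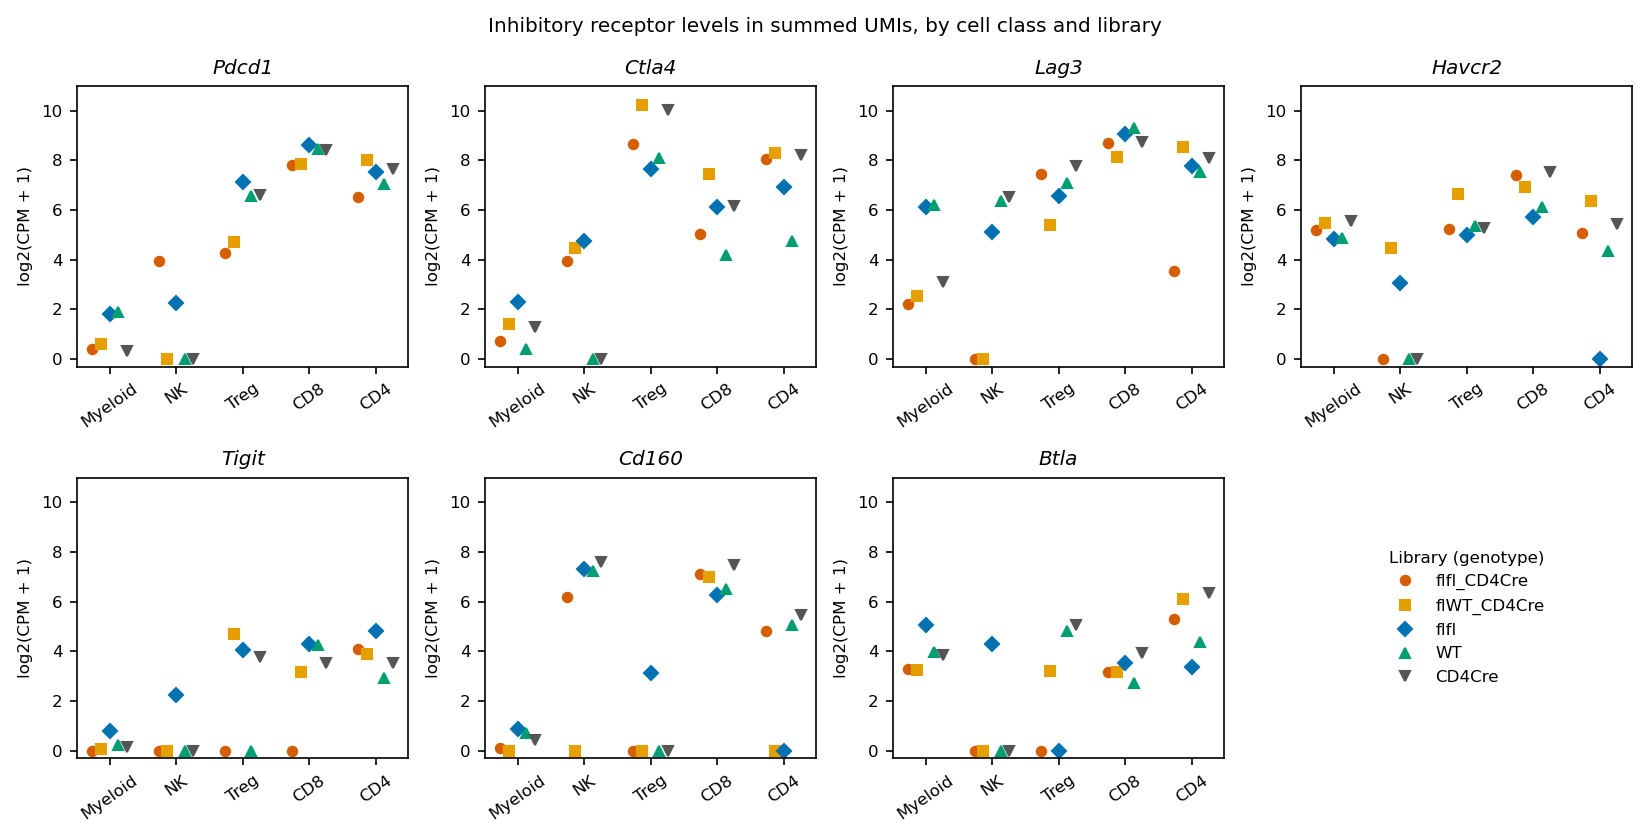
Level of each of the 7 genes (CPM) in myeloid, NK, regulatory T, CD8 and CD4 cells, 1 point per library. Pdcd1 points of CD8 cells lie between 226 and 394 CPM, and Ctla4 points of regulatory T cells lie between 203 and 1199 CPM.

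Pdcd1 (chr1:94038305-94052553), the receptor for PD-L1, was lower in regulatory T, NK and myeloid cells than in CD8 cells. Myeloid cells ranged between 0.239 and 2.67 CPM, and NK cells held 2 Pdcd1 UMIs in all. Regulatory T cells had 18.4 in the floxed/floxed-CD4Cre library, 25.0 in floxed/WT-CD4Cre, 140.4 in floxed/floxed, 94.6 in WT and 96.0 CPM in CD4Cre. CD8 cells had 226 in the floxed/floxed-CD4Cre library, 229 in floxed/WT-CD4Cre, 394 in floxed/floxed, 350.5 in WT and 339.9 in CD4Cre. Each library had less Pdcd1 in its regulatory T cells than in its CD8 cells, and the 2 classes did not overlap across libraries. Without shared barcodes Pdcd1 in regulatory T cells was at 41.5 CPM in floxed/floxed-CD4Cre, 39.4 CPM in floxed/WT-CD4Cre and 166 CPM in CD4Cre, still below the CD8 cells of every library. CD4 cells lay between, with 92.0 in the floxed/floxed-CD4Cre library, 261 in floxed/WT-CD4Cre, 184 in floxed/floxed, 130.2 in WT and 202 CPM in CD4Cre, overlapping both of the other T cell classes.

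In edgeR's quasi-likelihood test over class sums, with library as a block, Pdcd1 was lower in regulatory T than in CD8 cells by a log2 fold change of −2.24 (SE 0.40, adjusted p = 0.000852). It was also lower in NK than in CD8 cells, with a pooled ratio of CPM of 0.0100 (0.00121 to 0.0363) and adjusted p = 4.05e-06. Myeloid cells had a pooled ratio to CD8 cells of 0.00222 (0.00167 to 0.0029). Pooled ratios, here and below, add UMIs over all 5 libraries and so mix class with library set. The floxed/floxed library held 4475744 of 7916899 UMIs of CD8 cells, but 7090243 of 67739640 UMIs of myeloid cells. Against CD4 cells, regulatory T cells had a log2 fold change of −1.40 (SE 0.44, adjusted p = 0.0497) with lower values in 5 of 5 libraries, a call that was lost under 12 of 13 alternatives (adjusted p 0.0361 to 0.347), among them leaving out each of the 5 libraries (0.0702 to 0.179). CD8 against CD4 cells gave 1.02 (SE 0.58, adjusted p = 0.498), which did not pass. The order by median level was CD8, CD4 and regulatory T, and neither CD8 and CD4 nor CD4 and regulatory T cells were separated across libraries. Myeloid and NK cells lay below these classes but could not be ordered. The 2 UMIs of NK cells gave a median of 0 and a mean of 3.61 CPM, against a mean of 1.26 CPM in myeloid cells.

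The backgrounds of these contrasts came from 2 fits. Of all genes tested, 7.7% were called between regulatory T and CD8 cells (2.65% higher, 5.05% lower), 8.52% between regulatory T and CD4 cells (3.79% higher, 4.73% lower) and 4.2% between NK and CD8 cells (2% higher, 2.19% lower). In the other fit, which kept only sums of at least 20 cells and tested 12538 genes against 3742, the share was 44.8% between myeloid and CD8 cells and 1.13% between CD8 and CD4 cells (0.686% higher, 0.447% lower). Among the 3742 genes with all sums kept these 2 contrasts gave 50.8% and 3.39%. In the contrast of regulatory T and CD8 cells, 4 of the 5 inhibitory receptors with enough UMIs to test were called, 1 higher and 3 lower, and the median log2 fold change of these 5 was −1.86 against −0.02 over all genes. In the contrast of myeloid and CD8 cells 6 of 7 were lower and 1 was higher, with 17.5% of all genes lower and 27.3% higher, and the median of the 7 was −5.44 against 0.10 over all genes. Tigit and Btla had too few UMIs in the contrasts of regulatory T and NK cells. Genes that passed the filter through the class where they are high had to differ, so these counts and medians are a description only.

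**Figure D2:**
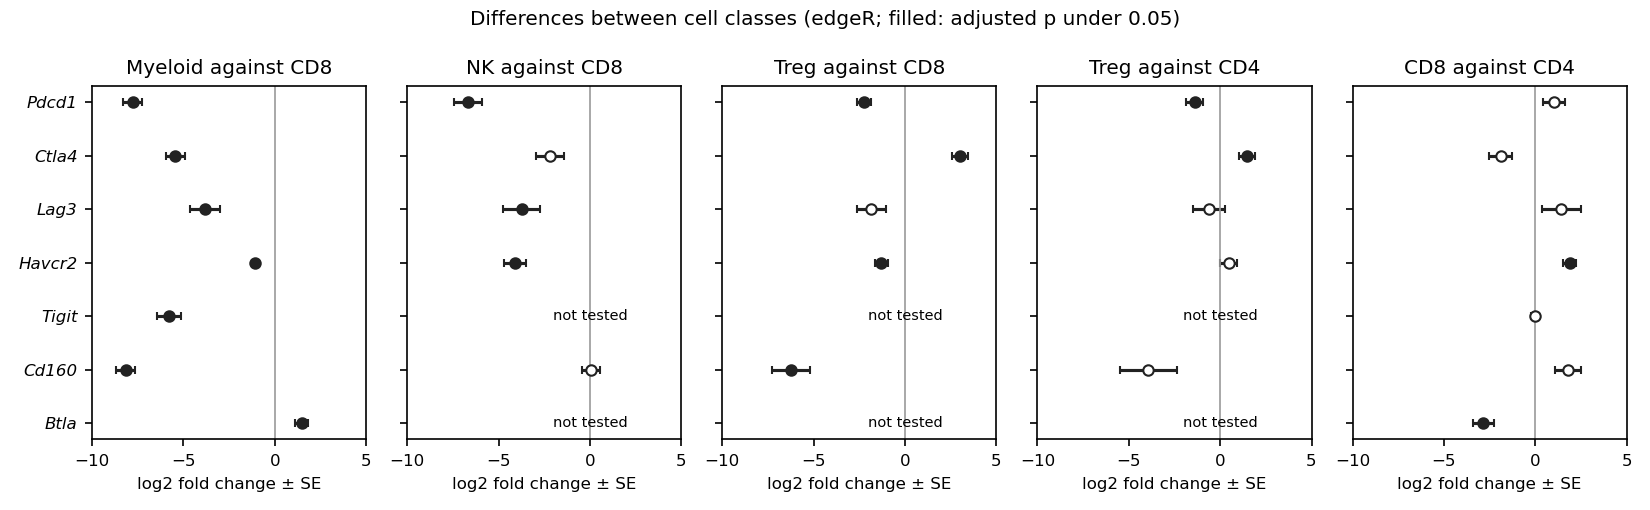
Fitted log2 fold changes with SE of the inhibitory receptors in 5 contrasts between cell classes. Ctla4 lies to the right of 0 in regulatory T against CD8 cells (3.00) while Pdcd1 lies to the left (−2.24).

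Ctla4 (chr1:60887000-60915832), the competitor of CD28 for CD80 and CD86, was higher in regulatory T cells than in CD8 cells. Myeloid cells had 0.314 to 3.95 CPM, and NK cells held 9 Ctla4 UMIs in all. Regulatory T cells had 405 in the floxed/floxed-CD4Cre library, 1199 in floxed/WT-CD4Cre, 203 in floxed/floxed, 270.2 in WT and 1036 CPM in CD4Cre. CD8 cells had 32.3 in the floxed/floxed-CD4Cre library, 177 in floxed/WT-CD4Cre, 68.6 in floxed/floxed, 17.3 in WT and 70.8 in CD4Cre. Every regulatory T value lay above every CD8 value. Without shared barcodes Ctla4 in regulatory T cells was at 871 CPM in floxed/floxed-CD4Cre, 959 CPM in floxed/WT-CD4Cre and 956 CPM in CD4Cre. CD4 cells had 265 in the floxed/floxed-CD4Cre library, 316 in floxed/WT-CD4Cre, 119 in floxed/floxed, 26.0 in WT and 298 CPM in CD4Cre, and in each library this was below the regulatory T and above the CD8 level.

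The log2 fold change of Ctla4 between regulatory T and CD8 cells was 3.00 (SE 0.44, edgeR adjusted p = 0.000128) and the call held under 14 of 14 alternatives. Between regulatory T and CD4 cells it was 1.45 (SE 0.44, adjusted p = 0.0436), higher in 5 of 5 libraries, but 8 of 14 alternatives lost the call (adjusted p 0.0091 to 0.281). These included leaving out CD4Cre (0.176), floxed/WT-CD4Cre (0.138) or WT (0.189). CD8 against CD4 cells gave −1.90 (SE 0.63, adjusted p = 0.241), lower in 5 of 5 libraries, which did not pass. In both regulatory T and CD4 cells the 3 Cre libraries held more Ctla4 than the other 2 libraries, and in regulatory T cells the lowest Cre value was 405 CPM against 270.2 CPM in WT. Cre and library set cannot be told apart here.

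Ctla4 also differed between the CD8 cells of different libraries. It was 177 CPM (142 to 218) in floxed/WT-CD4Cre, 68.6 CPM (61.1 to 76.7) in floxed/floxed and 17.3 CPM (12.6 to 23.3) in WT. After each cell was thinned to 1500 UMIs, 28.6% of CD8 cells in floxed/WT-CD4Cre, 12.5% (9.56 to 15.9) in floxed/floxed and 2.42% (0.979 to 4.93) in WT held a Ctla4 UMI. The levels of floxed/floxed-CD4Cre (32.3 CPM) and CD4Cre (70.8 CPM) lay between those of WT and floxed/WT-CD4Cre. These extremes belong to different library sets, and they are the libraries whose deposited names disagreed with the labels. With 1 library per genotype this difference has no replicate check.

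Lag3 (chr6:124904361-124911705), a receptor for MHC class II, was lower in myeloid than in CD8 cells, while no contrast of Lag3 between T cell classes passed. NK cells had 0 to 90.7 CPM. Regulatory T cells had 175 in the floxed/floxed-CD4Cre library, 41.6 in floxed/WT-CD4Cre, 93.6 in floxed/floxed, 135 in WT and 218 CPM in CD4Cre. CD8 cells had 419 in the floxed/floxed-CD4Cre library, 279 in floxed/WT-CD4Cre, 528 in floxed/floxed, 624 in WT and 428 in CD4Cre. Every CD8 value lay above every regulatory T value, yet the log2 fold change was −1.86 (SE 0.80, edgeR adjusted p = 0.204). Without shared barcodes the classes overlapped, since Lag3 in regulatory T cells was at 394 CPM in floxed/floxed-CD4Cre, 39.4 CPM in floxed/WT-CD4Cre and 395 CPM in CD4Cre, and in CD8 cells at 419 CPM in floxed/floxed-CD4Cre, 322 CPM in floxed/WT-CD4Cre and 552 CPM in CD4Cre. CD4 cells had 10.8 in the floxed/floxed-CD4Cre library, 371 in floxed/WT-CD4Cre, 220.5 in floxed/floxed, 182 in WT and 272 CPM in CD4Cre, and the lowest of these rested on 2 UMIs. NK cells were lower than CD8 cells, with a log2 fold change of −3.73 (SE 1.01, adjusted p = 0.0444), a call lost under 10 of 14 alternatives (adjusted p 0.000377 to 0.222) and without each of the 5 libraries.

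In myeloid cells Lag3 split by library set, at 3.68 in the floxed/floxed-CD4Cre library, 4.77 in floxed/WT-CD4Cre, 69.3 in floxed/floxed, 72.8 in WT and 7.66 CPM in CD4Cre. The floxed/floxed and WT libraries were high and the 3 Cre libraries low, with no overlap. The gene next to Lag3 is Ptms (chr6:124913681-124920103), which encodes parathymosin and ends 1975 bases before the start of Lag3 on the same strand. Ptms in myeloid cells was at 293 in the floxed/floxed-CD4Cre library, 309 in floxed/WT-CD4Cre, 226 in floxed/floxed, 236 in WT and 379 CPM in CD4Cre, so that it was lower where Lag3 was higher. The sum of the 2 genes was between 295 and 386 CPM in myeloid cells, and Lag3 made up 1.24% of it in the floxed/floxed-CD4Cre library, 1.52% in floxed/WT-CD4Cre, 23.4% in floxed/floxed, 23.6% in WT and 1.98% in CD4Cre. In other classes the sum was 564 to 807 CPM (CD8), 168 to 660 CPM (CD4) and 162 to 956 CPM (regulatory T).

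CD8 cells showed the same split with a higher share of Lag3, at 55.3% in the floxed/floxed-CD4Cre library, 49.5% in floxed/WT-CD4Cre, 75.2% in floxed/floxed, 80.4% in WT and 53.1% in CD4Cre. The T cell genes Trac and Trbc2 were also higher in the myeloid cells of those 2 libraries, with Trac at 0.631 in the floxed/floxed-CD4Cre library, 0.402 in floxed/WT-CD4Cre, 8.74 in floxed/floxed, 7.07 in WT and 0.239 CPM in CD4Cre. The part of the gene table, of the neighbouring gene and of T cell RNA in the myeloid Lag3 level was not tested. Levels of Lag3 are therefore compared below only within a library set, or with this split stated. Within libraries, Lag3 was lower in myeloid than in CD8 cells in 5 of 5 libraries, by −3.80 (SE 0.82, edgeR adjusted p = 0.0139).

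**Figure D3:**
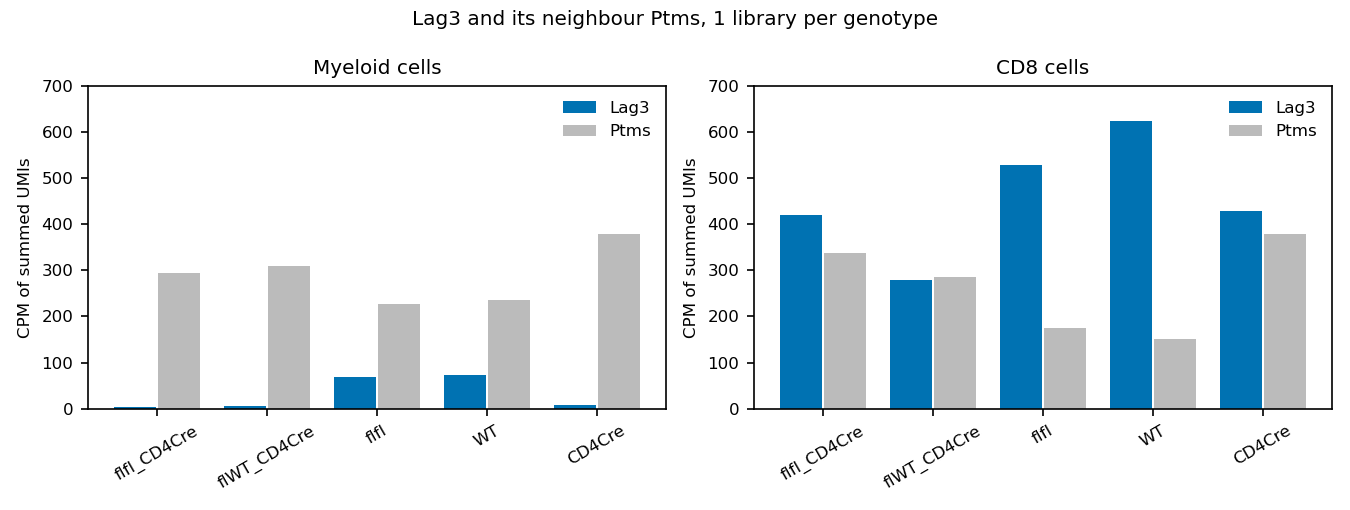
Lag3 and its neighbour Ptms (CPM) in myeloid and CD8 cells of the 5 libraries, bars without error since there is 1 library per genotype. In myeloid cells Lag3 is at 3.68 to 7.66 CPM in the 3 Cre libraries, where Ptms is higher, and at 69.3 CPM in floxed/floxed and 72.8 CPM in WT.

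Havcr2 (chr11:46454935-46481255), which encodes TIM-3, was detected in myeloid cells of every library and was lower there than in CD8 cells. Myeloid cells had 35.6 in the floxed/floxed-CD4Cre library, 43.3 in floxed/WT-CD4Cre, 27.4 in floxed/floxed, 28.5 in WT and 45.7 CPM in CD4Cre. NK cells held 3 UMIs in all. CD8 cells had 169 in the floxed/floxed-CD4Cre library, 122 in floxed/WT-CD4Cre, 51.6 in floxed/floxed, 69.4 in WT and 184 in CD4Cre. All myeloid values lay below all CD8 values, and the log2 fold change of myeloid against CD8 cells was −1.09 (SE 0.18, edgeR adjusted p = 6.92e-05). NK cells had a pooled ratio to CD8 cells of 0.0803 (0.0165 to 0.236) with adjusted p = 0.00014.

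Regulatory T cells had 31.2 to 99.9 CPM of Havcr2 and were lower than CD8 cells in 5 of 5 libraries. The log2 fold change was −1.30 (SE 0.36, edgeR adjusted p = 0.0235), and 6 of 11 alternatives lost the call (adjusted p 0.00897 to 0.239), among them leaving out CD4Cre (0.239), floxed/floxed-CD4Cre (0.111) or WT (0.0633). Without shared barcodes regulatory T cells of floxed/WT-CD4Cre held 158 CPM against 140.4 CPM in its CD8 cells, and the call was lost (−0.86, adjusted p = 0.167). CD4 cells had 0 to 82.5 CPM. CD8 cells were higher than CD4 cells by 1.88 (SE 0.36, adjusted p = 0.0137), in 5 of 5 libraries. That fit held 4 CD8 and 3 CD4 sums of at least 20 cells, with both classes in only 2 libraries, and the call was lost under 6 of 15 alternatives (adjusted p 0.00217 to 0.478), among them leaving out CD4Cre (0.217), floxed/floxed-CD4Cre (0.0602) or WT (0.0759). In CD8 cells the 3 Cre libraries (122 to 184 CPM) lay above floxed/floxed (51.6 CPM) and WT (69.4 CPM), and Cre and library set cannot be told apart.

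Cd160 (chr3:96798763-96829351), an HVEM receptor of cytotoxic lymphocytes, was present in NK and CD8 cells. Myeloid cells held 15 UMIs in all. NK cells had 71.6 in the floxed/floxed-CD4Cre library, 0 in floxed/WT-CD4Cre, 157 in floxed/floxed, 150.6 in WT and 193 CPM in CD4Cre, where the 0 rests on 3 cells. CD8 cells had 137 in the floxed/floxed-CD4Cre library, 126 in floxed/WT-CD4Cre, 77.1 in floxed/floxed, 91.1 in WT and 177 in CD4Cre. The 2 classes overlapped, with a log2 fold change of 0.05 (SE 0.50, edgeR adjusted p = 0.989). Regulatory T cells held 1 Cd160 UMI in all against 706 in CD8 cells, a pooled ratio of 0.0191 (0.000483 to 0.107) with adjusted p = 0.000396. CD4 cells had 0 to 42.6 CPM, and CD8 cells were higher by 1.78 (SE 0.71, adjusted p = 0.321), which passed only when class sums of under 20 cells were kept (2.33, adjusted p = 0.0225). Cd160 overlaps the start of Pdzk1 on the other strand, so its UMIs are uncertain to that extent. The 3 Cre libraries had more Cd160 in CD8 cells (126 to 177 CPM) than floxed/floxed and WT, as for Havcr2.

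Btla (chr16:45224315-45257670), the other HVEM receptor, followed another pattern and was low in CD8 cells. CD8 cells had 8.06 in the floxed/floxed-CD4Cre library, 8.03 in floxed/WT-CD4Cre, 10.5 in floxed/floxed, 5.52 in WT and 14.2 CPM in CD4Cre. CD4 cells had 37.9 in the floxed/floxed-CD4Cre library, 68.8 in floxed/WT-CD4Cre, 9.19 in floxed/floxed, 19.5 in WT and 79.9 in CD4Cre. CD8 cells were lower in 4 of 5 libraries, with a log2 fold change of −2.83 (SE 0.55, edgeR adjusted p = 0.0156), and 7 of 13 alternatives lost the call (adjusted p 0.00273 to 0.665), among them leaving out CD4Cre (0.255), floxed/floxed (0.0684) or floxed/floxed-CD4Cre (0.110). B cells are known to carry BTLA, and 3 B cell genes, all detected, summed to 16.1 to 175 CPM in CD8 cells, against 27.5 to 496 CPM in CD4 cells, a part that was not tested. Btla and Havcr2 were the 2 of 7 members called between CD8 and CD4 cells.

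Btla in myeloid cells was at 8.86 in the floxed/floxed-CD4Cre library, 8.39 in floxed/WT-CD4Cre, 32.7 in floxed/floxed, 14.8 in WT and 13.4 CPM in CD4Cre. It was higher than CD8 cells in 4 of 5 libraries, by a log2 fold change of 1.47 (SE 0.35, edgeR adjusted p = 0.00203). The levels were close in floxed/floxed-CD4Cre (8.86 against 8.06 CPM, the latter from 1 UMI) and floxed/WT-CD4Cre (8.39 against 8.03 CPM). Without shared barcodes myeloid cells of floxed/floxed-CD4Cre had 7.90 CPM, below the 8.06 CPM of its CD8 cells. That library's 18 CD8 cells were under the minimum of 20 cells and did not enter the fit. The pooled ratio of CPM, which mixes class with library set, was 1.40 (1.09 to 1.81). The edgeR call was lost without floxed/floxed (adjusted p = 0.127), without the library block (0.154) and in thinned cells (0.116). Dendritic cells are also known to carry BTLA. The 3 B cell genes summed to 27.8 to 232 CPM in myeloid cells, and the 3 dendritic cell genes to 30.3 to 184 CPM in myeloid cells and 0 to 21.2 CPM in CD8 cells. Their part in the Btla level was not tested.

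Tigit (chr16:43648867-43664146), the competitor of CD226 for PVR, was near the limit of detection. It had 8 UMIs in myeloid cells, 1 in NK cells, 7 in regulatory T cells, 137 in CD8 cells and 10 in CD4 cells. The classes differ in total UMIs, so these counts do not compare levels. Its level ranged between 0 and 18.8 CPM in CD8 cells, 6.51 and 27.6 CPM in CD4 cells and 0 and 25.0 CPM in regulatory T cells, which overlapped. It was lower in myeloid than in CD8 cells (pooled ratio 0.00682, 0.00289 to 0.0138), and did not pass between CD8 and CD4 cells.

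CD8 cells usually held UMIs of several of the receptors. UMIs of at least 2 members were found in the following shares of CD8 cells, 72.2% in the floxed/floxed-CD4Cre library, 80.6% in floxed/WT-CD4Cre, 79.1% in floxed/floxed, 77.5% in WT and 82.4% in CD4Cre. In cells thinned to 1500 UMIs these shares were 41.2% in the floxed/floxed-CD4Cre library, 40% in floxed/WT-CD4Cre, 36.1% in floxed/floxed, 39.1% in WT and 38.2% in CD4Cre, close together across genotypes. Pdcd1 had a UMI in 0 to 0.368% of thinned myeloid cells. In thinned CD8 cells its share was 35.3% in the floxed/floxed-CD4Cre library, 40% in floxed/WT-CD4Cre, 38.98% in floxed/floxed, 38.8% in WT and 41.2% in CD4Cre. Before thinning these shares were 0.263% to 3.13% of myeloid cells, at median depths of 10196 to 13853 UMIs, and 44.4% to 74.4% of CD8 cells, at median depths of 5947 to 11491 UMIs.

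Detection of Lag3 went with detection of Pdcd1 in the 2 libraries with enough thinned CD8 cells. In floxed/floxed, Lag3 was found in 54.9% (47.2 to 62.4) of 175 cells with a Pdcd1 UMI and 37.6% (31.8 to 43.6) of 274 cells without. In WT it was found in 70.5% (61.2 to 78.8) of 112 cells with a Pdcd1 UMI and 39.5% (32.3 to 47.2) of 177 cells without. Cells of 1 library are not replicates, so these shares are a description.

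Genotypes were compared by the ratio of CPM in the floxed/floxed-CD4Cre over the CD4Cre library, which belong to the same library set and differ in the floxed alleles. Of 31 pairs of a member and a class with a UMI, 8 had a 95% counting interval that excluded 1, all below 1, and without shared barcodes 5 did. Lag3 in CD4 cells was at 10.8 CPM (2 UMIs) in floxed/floxed-CD4Cre and 272 CPM in CD4Cre, a ratio of 0.0398 (0.0047 to 0.151), and of 0.0449 (0.00529 to 0.171) without shared barcodes. Pdcd1 in CD4 cells was at 92.0 CPM in floxed/floxed-CD4Cre and 202 CPM in CD4Cre, a ratio of 0.454 (0.240 to 0.825), and of 0.405 (0.203 to 0.765) without shared barcodes. Its interval included 1 under stricter gates (0.766, 0.340 to 1.61) and in thinned cells (0.300, 0.032 to 1.41).

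The ratios of regulatory T cells did not keep their intervals. Ctla4 was at 405 CPM in floxed/floxed-CD4Cre and 1036 CPM in CD4Cre, a ratio of 0.390 (0.273 to 0.548), but without shared barcodes it was at 871 CPM in floxed/floxed-CD4Cre and 956 CPM in CD4Cre, a ratio of 0.911 (0.609 to 1.35). Under stricter gates the ratio was 0.833 (0.561 to 1.22) and in thinned cells 0.519 (0.201 to 1.19). Pdcd1 was at 18.4 CPM (2 UMIs) in floxed/floxed-CD4Cre and 96.0 CPM (15 UMIs) in CD4Cre, a ratio of 0.192 (0.0213 to 0.824), and its interval included 1 without shared barcodes (0.250, 0.0274 to 1.11), under stricter gates (0.333, 0.0362 to 1.5) and in thinned cells (0.519, 0.0512 to 2.9).

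In CD8 cells no interval excluded 1 with all cells, where 7.12% of all genes had one (3.09% below 1). Pdcd1 there was at 226 CPM in floxed/floxed-CD4Cre and 339.9 CPM in CD4Cre, a ratio of 0.664 (0.420 to 1.02). Its interval excluded 1 without shared barcodes (0.540, 0.338 to 0.841) and under stricter gates (0.474, 0.294 to 0.744) but not in thinned cells (0.640, 0.250 to 1.46).

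In the other classes the intervals excluded 1 for 3 of 7 members in myeloid cells (31.1% of all genes, 12.6% below 1), 1 of 4 in NK cells (7.26%, 3.95% below 1), 2 of 6 in regulatory T cells (11.7%, 4.91% below 1) and 2 of 7 in CD4 cells (7.22%, 3.67% below 1). Lag3 in myeloid cells had a ratio of 0.480 (0.348 to 0.666), and of 0.586 (0.369 to 0.944) without shared barcodes. Havcr2 in myeloid cells had a ratio of 0.777 (0.690 to 0.877), and of 0.849 (0.741 to 0.975) without shared barcodes. Btla in myeloid cells had a ratio of 0.661 (0.527 to 0.833), and of 0.740 (0.544 to 1.02) without shared barcodes. In NK cells Lag3 had 0 UMIs in floxed/floxed-CD4Cre and 8 UMIs in CD4Cre, and its interval reached 1.13 without shared barcodes. There was 1 library per genotype and so no test of genotype, and the counting interval leaves out the spread between animals. Under stricter gates 6 intervals excluded 1, and in thinned cells 2.

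**Figure D4:**
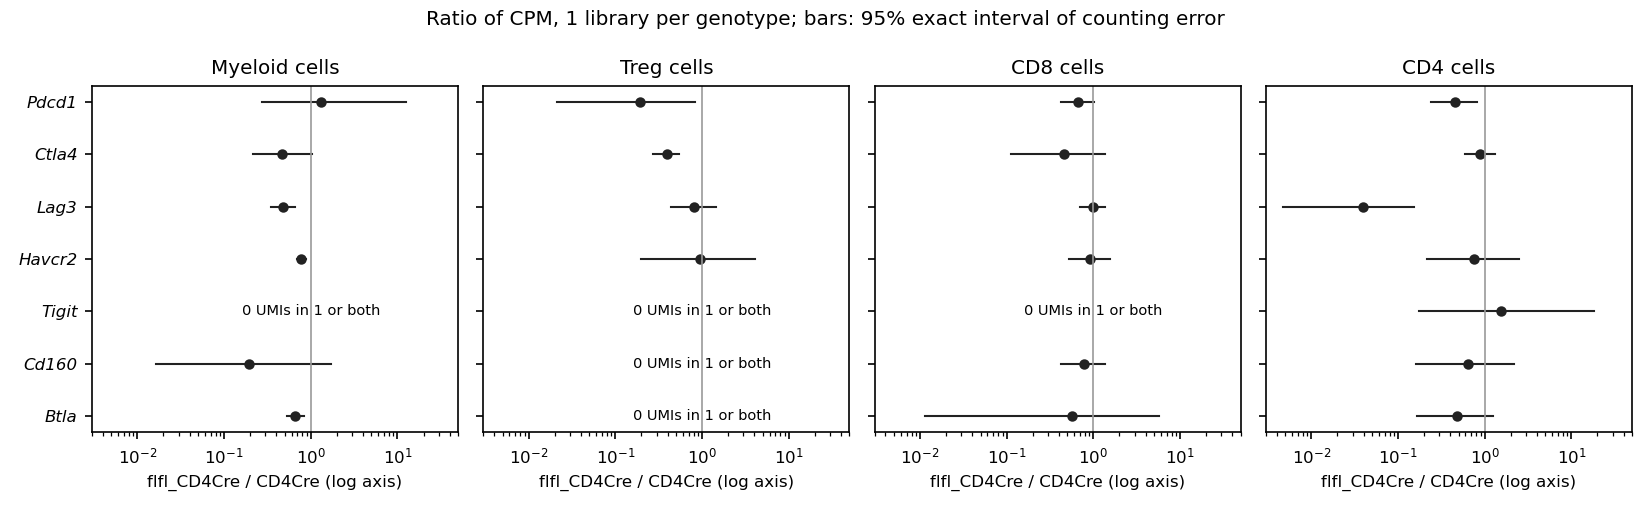
Ratio of CPM in floxed/floxed-CD4Cre over CD4Cre (log axis) in myeloid, regulatory T, CD8 and CD4 cells, with 95% counting intervals. Only members with UMIs in both libraries are drawn, and NK cells are left out. All cells of these classes are included. Of the 8 intervals that exclude 1, all below 1, that of Lag3 in NK cells is not drawn. None is in CD8 cells, where that of Pdcd1 (0.664, 0.420 to 1.02) came to 0.338 to 0.841 without shared barcodes.

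Genes of the same pathways were read from a list of 38 ligands, other receptors, phosphatases and transcription factors, and values in brackets are log2 fold changes past an edgeR adjusted p of 0.05. Between myeloid and CD8 cells 12 were higher and 15 lower of 37 tested, against 27.3% higher and 17.5% lower over all genes. These counts, and those of the next contrasts, are a description only. Ligands accounted for 8 of the 12 with 1 ligand lower. The largest changes were lower: Tox (−9.03) and Tox2 (−6.43), transcription factors tied to exhaustion, Eomes (−8.63), a T-box factor, and the receptors Cd96 (−8.18), Klrc1 (−8.12) and Cd5 (−5.59). Ligand genes chosen after their values were seen were Cd274 at 2.83 and Lgals3 (galectin-3) at 3.43 higher in myeloid cells. Cd274 in myeloid cells split by library set. It was at 155 CPM in floxed/floxed-CD4Cre, 294 in floxed/WT-CD4Cre and 230 in CD4Cre, against 38.5 in floxed/floxed and 33.3 in WT. Cre and library set cannot be told apart there.

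Between regulatory T and CD8 cells 4 of 25 were higher and 7 lower, against 2.65% higher and 5.05% lower over all genes. Klrc1, which encodes the receptor NKG2A, had 0 UMIs in regulatory T and 1469 in CD8 cells, at least 36.3-fold lower against a floor of 3 UMIs over the class. Eomes had 0 UMIs in regulatory T and 494 in CD8 cells, at least 12.2-fold lower. Klrg1 (3.15), a receptor for cadherins, was higher, and Cd244 (−4.16), Nr4a2 (−2.75) and Cd226 (−2.59) were lower. The other 3 genes that were higher, named after their values were seen, were Cd5 (2.48), Ikzf2 (2.25), the transcription factor Helios, and Batf (1.33). Between regulatory T and CD4 cells 1 of 25 was higher (Ikzf2, 1.56) and 4 were lower, namely Tcf7 (−5.47), a factor of naive and stem-like T cells, Ptpn11 (−2.14), the phosphatase SHP-2, Nfatc1 (−1.57) and Tox (−1.54). Over all genes 3.79% were higher and 4.73% lower in that contrast. Between CD8 and CD4 cells 2 of 37 were higher, Cd244 (2.71) and Entpd1 (1.75), which encodes CD39, and Tcf7 was lower (−2.94). The shares over all genes there were 0.686% higher and 0.447% lower. Between NK and CD8 cells 2 of 25 were higher, Klrg1 (3.01) and Cd244 (1.30), and 4 were lower: Ikzf2 (−2.94), Tox (−2.79), Nr4a2 (−2.49) and Cd5, which had 0 UMIs in NK and 316 in CD8 cells, at least 7.27-fold lower. Here 2% of all genes were higher and 2.19% lower.

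The genes whose log2(CPM + 1) was most like each member's over the 25 class sums of the libraries were found by Pearson's r among 7934 genes. For Pdcd1 these were Ubash3a (0.92), 1500009L16Rik (0.90) and Sit1 (0.88), and for Ctla4 they were Bcl11b (0.90), Icos (0.90) and Cd6 (0.88). Lag3 was most like Xlr4b (0.84), Trac (0.82) and Ltb (0.81), and Cd160 most like Crtam (0.91), Ifitm10 (0.85) and Baiap3 (0.85). The best matches were weaker for Havcr2 (Zfp729a, 0.75), Tigit (Rexo5, 0.77) and Btla (H2-Ob, 0.81). The sums share libraries and cell classes, mix the library sets, and are not independent points. In myeloid cells Lag3 and Trac were each higher in floxed/floxed and WT, and the part of this split in their likeness was not tested.

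The 12 bulk libraries differed in what they could show of the receptors. In the PD1_Fc and Ctrl_Fc libraries, with 3473884 to 5006301 gene counts each, Pdcd1, Havcr2, Tigit and Btla were listed at 0 in all 6. Cd3d, which every T cell uses, was at 0 too, and the 79.9% to 80.4% of reads not aligned in these libraries stand beside this, so a 0 does not show absence. In bulk RNA, fewer cells of a type and less RNA per cell cannot be told apart. The PDL1_Fc and Control libraries, with 14880455 to 18557390 gene counts, went against their T cell label: Trac was at most 0.131 CPM and the macrophage gene Lyz2 averaged 21580 CPM in PDL1_Fc and 21380 CPM in Control. The titles also conflict with the treatment labels, since PD1_Fc replicate 3 is labelled with PDL1 Fc and all PDL1_Fc replicates with PD1 Fc. The protocol names PD-1 Fc or a control IgG Fc at 2.5 ug/ml, and the titles were followed.

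Ctla4 did not pass the test between PD1_Fc and Ctrl_Fc, although its values did not overlap. It was at 87.1, 81.6 and 85.1 CPM in PD1_Fc (84.6 ± 2.81, SD, n = 3), against 74.3, 67.2 and 69.9 CPM in Ctrl_Fc (70.5 ± 3.57, SD, n = 3). All PD1_Fc values lay above all Ctrl_Fc values, and the log2 fold change was 0.33 (SE 0.13, edgeR adjusted p = 0.919, range over alternatives 0.280 to 1), with 0.0478% of 14653 genes called. The share of all genes without overlap was not computed, here or for the cell classes, so values that do not overlap are a description only. Lag3 was at 56.9, 74.7 and 72.1 CPM in PD1_Fc (67.9 ± 9.60), against 74.6, 73.4 and 78.1 CPM in Ctrl_Fc (75.3 ± 2.45), and the groups overlapped (−0.09, SE 0.13, adjusted p = 0.977). Cd160 had 5 counts in PD1_Fc and 7 in Ctrl_Fc in all.

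In the libraries titled PDL1_Fc and Control, Havcr2 had the most counts of the 7 genes. It was at 15.4, 16.9 and 13.3 CPM in PDL1_Fc (15.2 ± 1.80), against 14.6, 11.5 and 14.0 CPM in Control (13.4 ± 1.66), and the groups overlapped (0.18, SE 0.15, edgeR adjusted p = 1). Lag3 was at 1.50, 1.01 and 1.25 CPM in PDL1_Fc and 2.54, 1.51 and 2.09 CPM in Control, so that the highest PDL1_Fc value lay just below the lowest Control value (−0.71, SE 0.26, edgeR adjusted p = 1). Btla averaged 0.713 ± 0.124 CPM in PDL1_Fc and 0.619 ± 0.175 CPM in Control (SD, n = 3 each). Of all genes 0% were called by edgeR and by DESeq2, and 528 had an unadjusted p under 0.05 in edgeR. Of the 38 pathway genes 32 were tested in each bulk comparison and 0 were called. The filter on low counts ran over all 12 libraries, so genes near 0 in the groups compared were kept. Ceacam1, Lair1 and Tnfrsf14 had 0 counts in PD1_Fc and Ctrl_Fc. Tox had 2 counts in Control and 0 in PDL1_Fc, and Eomes had 0 in Control and 2 in PDL1_Fc. Such genes could not be called there, so the count of calls does not show that they were unchanged.

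**Figure D5:**
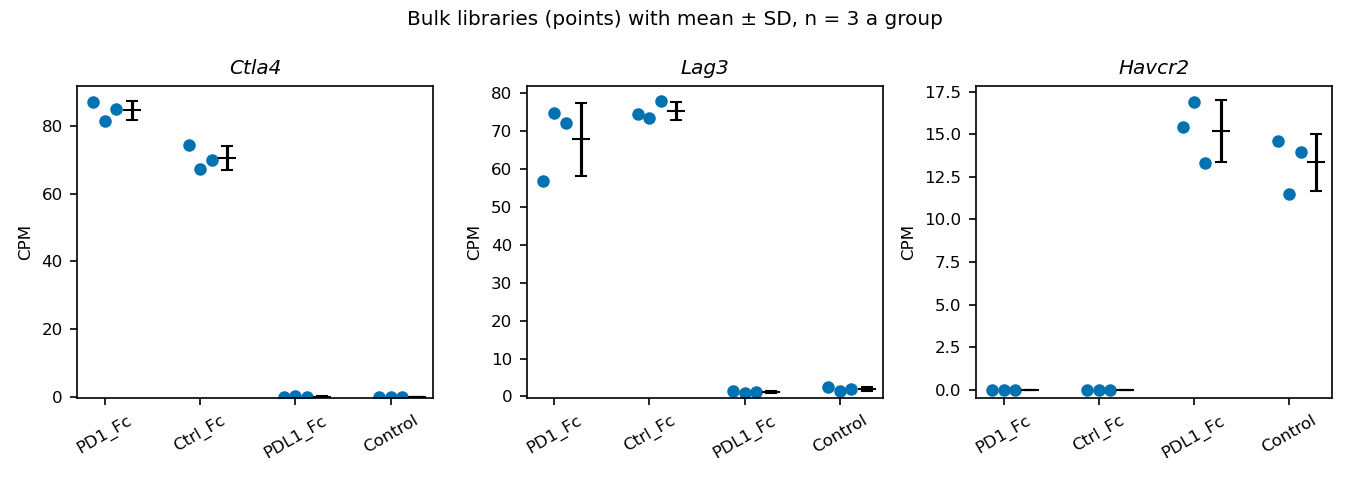
Ctla4, Lag3 and Havcr2 (CPM) in the 12 bulk libraries, points per library with mean ± SD, n = 3 a group. Ctla4 lies between 81.6 and 87.1 CPM in PD1_Fc and between 67.2 and 74.3 CPM in Ctrl_Fc, a difference that did not pass (edgeR adjusted p = 0.919).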

How the data were processed

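The deposited single-cell matrices hold UMI counts, made with Cell Ranger per the submitters' processing notes, and 3 of the 5 matrices name version 3.1.0 in their header. The deposited bulk tables hold read counts per gene; the processing notes name STAR, HTSeq, bedtools and build mm10, and whether counting used strand is not given in the sources used here. Rows naming no gene held 42.6% to 88.2% of bulk reads and stayed out of library sizes.

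Barcodes under 200 detected genes or above 10% mitochondrial UMIs were dropped, doublets called by Scrublet (scanpy 1.11.5) were removed, and 2797 to 5359 cells per library remained, with median depths of 4844 to 11136 UMIs. Marker UMIs then gave the classes. Raw counts were summed per class and library and fitted with edgeR 4.0.16 (TMM scaling, quasi-likelihood test, Benjamini-Hochberg adjustment at 0.05, R 4.3.3) with library as a block. Sums of at least 20 cells entered the CD8 against CD4 and myeloid against CD8 fits; those of regulatory T and NK cells used all sums, a choice made after the cell numbers were seen. TMM makes fitted fold changes differ from ratios of the CPM printed. Bulk libraries were fitted together. DESeq2 1.42.0 was an alternative, and the fits were tested on simulated data.

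Intervals are exact Poisson or binomial and cover counting error only. All 7 receptors are reported; pathway genes past 0.05 could be named, at most 6 per contrast by size. The members, markers and lists were chosen with earlier results of these data known. Sequences come from RefSeq (GRCm38.p6); gene positions from GENCODE on GRCm38.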

Additional observations from a re-analysis of the deposited data

How the results depend on the processing

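Of the values recomputed for single genes 384 kept their direction and side of the threshold, 52 lost a call, 4 gained a call and 15 changed sign. None of the 15 was called in either setting. They were Tigit in CD8 against CD4 (log2 fold change −0.02), at 0.0038 with DESeq2 size factors, 0.0019 without a filter, 0.77 without the library block, 0.83 without shared barcodes and −1.33 to 0.82 leaving out a library; Lag3 in regulatory T against CD4 (−0.61), at 0.00033 under stricter gates, 0.12 thinned and −1.29 to 0.0074 leaving out a library; and Cd160 in NK against CD8 (0.05), at −0.54 with DESeq2's Wald test, −0.17 without a filter, −0.16 under stricter gates and −0.39 to 0.39 leaving out a library. Counts of called genes moved by over 1.5 times as follows. PD1_Fc against Ctrl_Fc (7) gave 12 with DESeq2's Wald test, 27 with only the 6 libraries compared, 44 with a replicate block there, and 0 to 8 leaving out a library. PDL1_Fc against Control (0) gave 1 without a filter, 0 with a replicate block, and 0 to 1 leaving out a library. Same-numbered replicates did not pair (correlations of −0.11 to 0.05). CD8 against CD4 (142) gave 215 with DESeq2, 48 under stricter gates, 31 without the library block, 27 without shared barcodes, and 12 to 173 leaving out a library. Myeloid against CD8 (5620) gave 3184 in thinned cells, 3735 without the block, 1900 without a cell minimum (50.8% of the genes then tested), and 4128 to 5521 leaving out a library. Regulatory T against CD4 (319) gave 182 without a filter, 33 under stricter gates, 48 thinned (7.06% of 680 genes then tested), 24 without the block, 94 without shared barcodes, and 35 to 238 leaving out a library. Regulatory T against CD8 (288, 7.7%) gave 135 thinned (19.9% of 680 genes), 97 without the block and 177 to 240 leaving out a library. NK against CD8 (157) gave 260 without a filter, 40 thinned (5.88% of 680 genes), 59 without the block and 83 to 122 leaving out a library. Genotype intervals that exclude 1 (8) came to 2 in thinned cells and 5 without shared barcodes, and the median share of CD8 cells with at least 2 members (79.1%) to 39.1% in thinned cells. With library totals in place of TMM the split of higher and lower calls turned to 2545 and 3547, against 3420 and 2200, in myeloid against CD8 cells, to 40 and 79, against 86 and 56, in CD8 against CD4, to 234 and 116, against 142 and 177, in regulatory T against CD4, and to 144 and 121, against 99 and 189, in regulatory T against CD8. The median over all genes was then −0.21 in myeloid against CD8 cells, against 0.10 with TMM. The causes were not tested. Small cell numbers and low UMIs of Tigit, Btla and Cd160 limit the T and NK contrasts.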
